A study of Caenorhabditis elegans with 2 samples.

Results

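The 10 glycolysis genes gpi-1, pfk-1.1, aldo-1, aldo-2, tpi-1, gpd-2, gpd-3, pgk-1, enol-1 and pyk-1 of the nematode Caenorhabditis elegans were taken by symbol from a list drawn up with earlier results of these data known, although the rule that names them uses no measured value. All 10 were found in the annotation, among 19973 protein-coding genes of the nuclear genome, and RefSeq names each product as the enzyme its symbol stands for. The measurement was chromatin immunoprecipitation followed by sequencing (ChIP-seq), which maps where a protein sits on DNA. The protein was NHR-90, a nuclear hormone receptor, fused at its C terminus to GFP and FLAG and precipitated through the GFP. The samples were whole hermaphrodite L1 larvae of strain OP483, genotype unc-119(tm4063) III; wgIs483, synchronised by starvation after bleaching and taken 6 h later. Replicates 1 and 2 are labelled as biological replicates and form 1 group, so nothing was compared with an untagged strain or another treatment. All animals carry the transgene and the unc-119 mutation, the labels do not name the promoter of the transgene, and the larvae were precipitated whole, so binding in single tissues cannot be told apart.

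Glycolysis converts glucose to pyruvate in a chain of enzyme steps and yields ATP and NADH. An isomerase (GPI) and phosphofructokinase (PFK) prepare the sugar, aldolase splits it, and triosephosphate isomerase (TPI) interconverts the products. Glyceraldehyde-3-phosphate dehydrogenase (GPD), phosphoglycerate kinase (PGK), enolase and pyruvate kinase (PYK) carry out the later part, in which ATP is regained. In this species phosphofructokinase, aldolase, glyceraldehyde-3-phosphate dehydrogenase and pyruvate kinase are each encoded by more than 1 gene.

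The sequences under the strongest peaks of 3 of these genes are shown first, for the account of motifs below. Each runs from 50 bp on one side of the summit to 50 bp on the other, on the gene's strand, read from RefSeq's WBcel235 genome, whose coordinates are those of ce11. All 3 genes lie on the minus strand. The aldo-2 window is chrIII:5877038-5877138, the gpd-2 window chrX:3115223-3115323 and the gpd-3 window chrX:3113160-3113260. Capitals mark any match to 1 of 6 searched motifs. The window of the pyk-1 summit, which held 1 of the 6, is not shown.
aldo-2: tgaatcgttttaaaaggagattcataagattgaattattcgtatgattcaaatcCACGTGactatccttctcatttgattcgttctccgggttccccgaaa
gpd-2: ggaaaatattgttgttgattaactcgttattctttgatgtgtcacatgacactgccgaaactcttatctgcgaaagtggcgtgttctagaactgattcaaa
gpd-3: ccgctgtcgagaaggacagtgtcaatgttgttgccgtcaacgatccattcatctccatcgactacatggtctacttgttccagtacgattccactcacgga

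Of the 10 genes, 4 had a peak of the authors' final list near an annotated 5′ end: aldo-2, gpd-2, gpd-3 and pyk-1. That list, called optimal, holds 4133 peaks that passed the authors' threshold on the irreproducible discovery rate. A gene was called when its window held a peak summit. The window ran from 1000 bp before to 200 bp after the annotated 5′ end of any transcript of the gene. Such an end need not be where transcription starts. By the same rule 14.7% of all protein-coding genes were called (2927 of 19973), so the members' share, 4 of 10, was above this background. With 10 genes, 2 of them neighbours, it was described and not tested. The count was 2 among the 2066 strongest optimal peaks (aldo-2 and gpd-2, with 8.59% of protein-coding genes) and 2 with a window of 500 bp before and 100 bp after the 5′ end (aldo-2 and gpd-3, with 11.6%). The called steps were aldolase, glyceraldehyde-3-phosphate dehydrogenase and pyruvate kinase. The genes for the isomerases, phosphofructokinase, phosphoglycerate kinase and enolase were not called, nor was the other aldolase gene, aldo-1.

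The called genes had middling to low signals. The signal is the authors' own value for each peak, with no stated scale, and serves here to rank peaks within a list. In the optimal list it runs between 69.4 and 1699.5, and read counts are not used here, so the depth behind each peak is unknown. The strongest peak of gpd-2 had a signal of 182.1 and rank 1176. For aldo-2 the signal was 141.2 and the rank 1732, for gpd-3 they were 123.5 and 2068, and for pyk-1 72.1 and 3939. The median over the 4 called members was 132.4, against 143.5 over all 2927 called protein-coding genes. A lower signal was found for 62.6% of called genes in the case of gpd-2, 49.0% for aldo-2, 41.3% for gpd-3 and 2.97% for pyk-1. In rank of signal gpd-2 stood between hlh-30 (182.2, rank 1175) and hphd-1 (182.1, rank 1177).

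**Figure D1:**
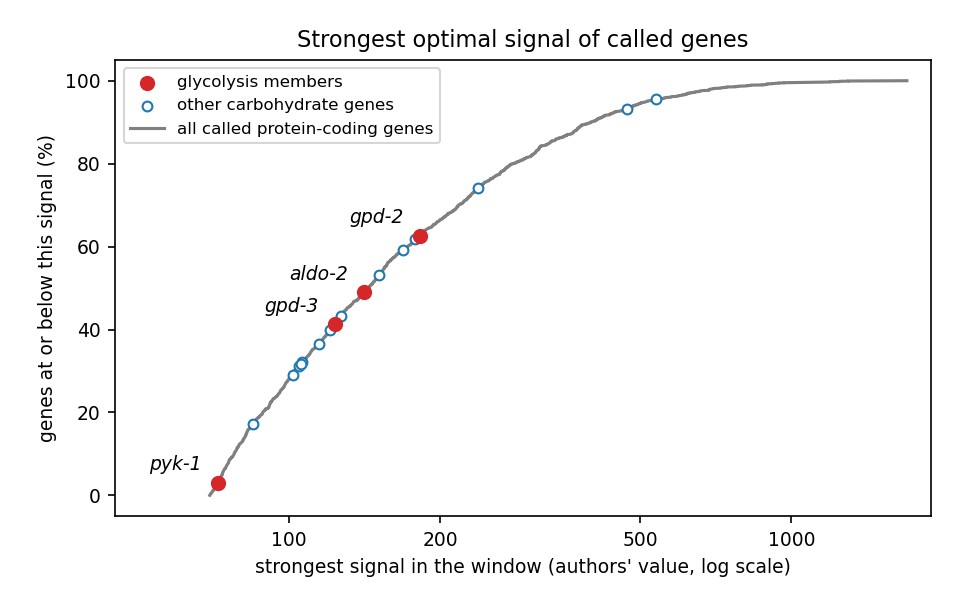
Cumulative percent of called protein-coding genes (vertical axis) at or below each value of their strongest optimal signal (horizontal axis, authors' value, log scale), with the 4 called glycolysis genes as filled red points and 14 other called carbohydrate genes as open points on the grey curve of all 2927. The glycolysis points lie between 72.1 and 182.1, in the lower and middle part of the curve.

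Both replicates held the strongest peaks of gpd-2, aldo-2 and gpd-3 at similar ranks. Each replicate has its own list of candidates, which by its label includes background: 27854 candidates in replicate 1 and 26708 in replicate 2. The gpd-2 summit ranked 1112 in replicate 1 (signal 96.4) and 1266 in replicate 2 (87.8), and the 2 replicate summits were 0 and 7 bp from the optimal one. The strongest aldo-2 summit ranked 1753 in replicate 1 (71.8) and 1510 in replicate 2 (77.6), at 25 and 1 bp from the optimal summit. The strongest gpd-3 summit ranked 2303 (57.9) and 2277 (58.1) in replicates 1 and 2, at 14 and 0 bp. All 3 of these peaks were thus well inside the strongest 4133 candidates of either replicate. The weaker peaks of aldo-2 and gpd-3 are described below.

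The replicates differed at pyk-1 and enol-1, which stood on either side of the threshold. In replicate 1 the pyk-1 candidate ranked 3073 (signal 45.8, 42 bp from the optimal summit). The overlapping candidate of replicate 2 ranked 7447 (23.6) and had its summit 81 bp away, 270 bp downstream of the 5′ end and so outside the window. The best candidate inside the pyk-1 window in replicate 2 was another one, 964 bp upstream, at rank 14967 (14.9). Over all optimal peaks the nearest summit of replicate 2 was at a median of 10 bp and a 90th percentile of 49 bp. At the second aldo-2 peak, described below, it was 62 bp away. For enol-1 replicate 2 had the higher rank: its strongest candidate ranked 4042 in replicate 2 (signal 37.1) and 5314 in replicate 1 (29.6), at 2 places of the gene. Replicate 2 had its summit in an intron, 149 bp upstream of an internal 5′ end, and replicate 1 in a coding exon, 45 bp downstream of a 5′ end near the start of the gene. In the list made from both replicates together (called pooled, with 30000 candidates), enol-1 had signals of 55.9 and 45.9 at these places. The first ranked 5286, below the lowest optimal signal of 69.4, and its −log10 q-value was 2.79, against 3.99 at every optimal peak of the members.

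Taking the 4133 strongest candidates of each replicate as its list gave 4 members in both cases, but not the same ones. Replicate 1 gave aldo-2, gpd-2, gpd-3 and pyk-1, with 14.7% of protein-coding genes called, and replicate 2 gave aldo-2, gpd-2, gpd-3 and enol-1, with 14.3%. The members called in both replicates were 3 of 10, with 12.2% of protein-coding genes, and 1 of 10 (aldo-2) with the narrower window, where 9.68% were.

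**Figure D2:**
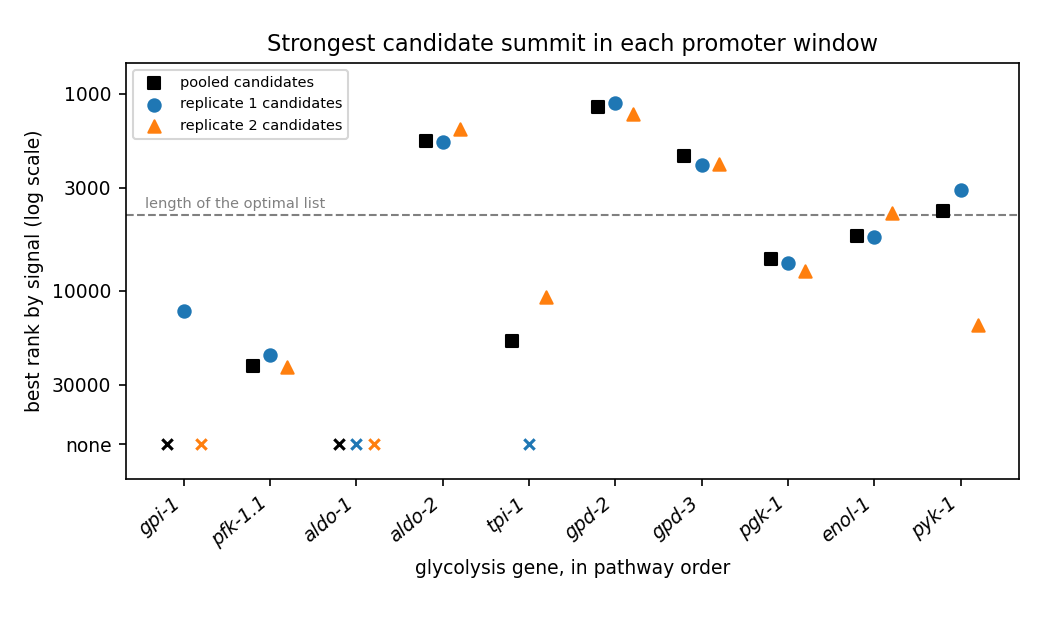
Best rank by signal (vertical axis, log scale, strongest at the top) of any candidate summit in the window of each glycolysis gene (horizontal axis, pathway order), in the pooled list, replicate 1 and replicate 2; a cross at the bottom marks no candidate, and the dashed line is the length of the optimal list, 4133. The 3 symbols of aldo-2, gpd-2 and gpd-3 lie together above the line, and those of enol-1 and pyk-1 fall on both sides of it.

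The remaining 5 members had weak candidates or none. For pgk-1 the pooled candidate had signal 44.7 and rank 6946, 588 bp upstream, and the best ranks were 7264 in replicate 1 and 7945 in replicate 2. At tpi-1 there was a pooled candidate of 22.4 (rank 17975), 40 bp downstream of the 5′ end, with one in replicate 2 (18.3, rank 10732) and none in replicate 1. The pfk-1.1 candidate had 18.1 (rank 24053), and the replicate summits were 655 and 941 bp upstream, at ranks 21286 and 24265 in replicates 1 and 2. At gpi-1, of the isomerase, replicate 1 had a candidate (16.4, rank 12671) that neither replicate 2 nor the pooled list had. No list had a candidate summit in the window of aldo-1. Any pooled candidate was present for 8 of 10 members, with 45.4% of protein-coding genes, and any candidate in each replicate for 7 of 10, with 33.5%. The depth is unknown and these lists reach into background, so a weak or missing candidate does not show that NHR-90 was absent.

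The windows of the uncalled genes were mostly unique sequence, as far as the letters of the genome show. Every run of 30 bases occurred once in the genome for gpi-1 and enol-1, 99.9% of them for pfk-1.1, 99.7% for aldo-1, 93.2% for tpi-1 and 84.9% for pgk-1. For 3 of the uncalled genes an optimal peak lay beyond the window but within 2000 bp of a 5′ end. At tpi-1 the intergenic peak chrII:12040152-12040551 had its summit 1213 bp upstream, with signal 132.1 and rank 1893. It ranked 1612 in replicate 1 and 2501 in replicate 2, and was in the window of no other gene. The peak past the end of pgk-1 (80.1) had its summit in a coding exon of coq-4, and that past the end of enol-1 (76.6) was in the window of T21B10.3. The nearest optimal summits to 5′ ends of gpi-1, aldo-1 and pfk-1.1 were 12353, 15732 and 44953 bp away.

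Of the 4 called genes, 2 had more than 1 summit. In all, 7 optimal summits lay in the windows of the 4 called genes: 3 at aldo-2, 2 at gpd-3 and 1 each at gpd-2 and pyk-1. Among all called protein-coding genes 6.76% had 2 or more and 0.717% had 3 or more. The pairs upstream of aldo-2 and at gpd-3 overlap one another, so they may not be separate sites. None of the 7 was in the window of another gene, whereas 43.1% of the 2410 optimal peaks in windows of coding genes were also in that of another gene. In width, 6 of the 7 had 400 bp, which 68.1% of optimal peaks had, and the gpd-2 peak had 329 bp.

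**Figure D3:**
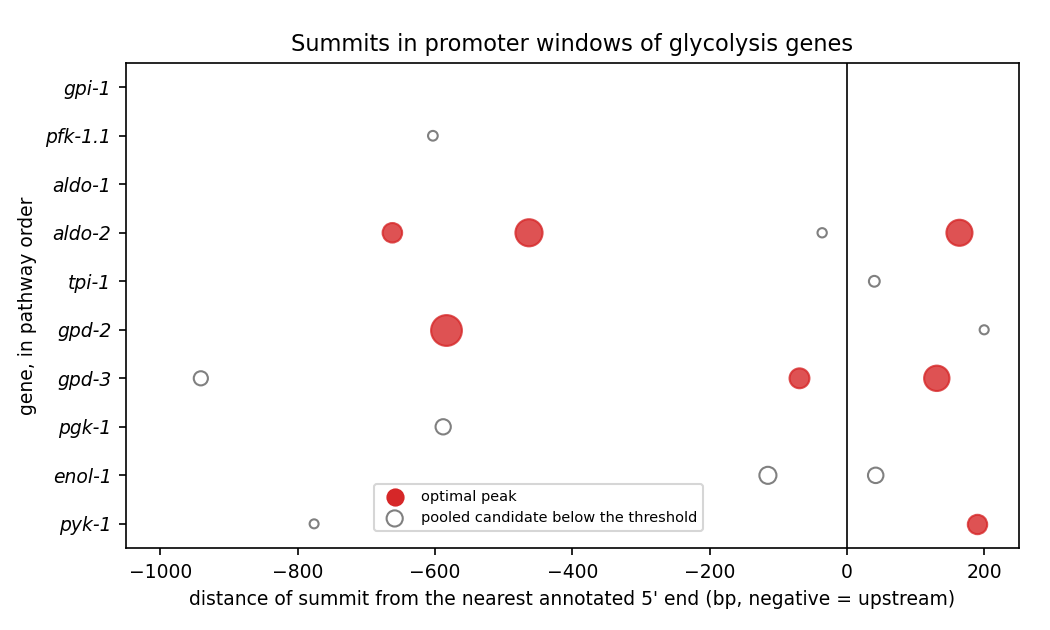
Distance of each summit from the nearest annotated 5′ end of its gene (horizontal axis, bp, negative upstream) for the 10 glycolysis genes (vertical axis, pathway order); filled red circles are optimal peaks, open grey circles pooled candidates below the threshold, and circle area is proportional to signal. The 7 optimal summits are spread between 662 bp upstream and 189 bp downstream, and gpi-1 and aldo-1 have no circle.

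Most of the members' summits lay inside transcribed genes. Of the 7, 4 were in coding exons, 2 in introns and 1 in intergenic DNA. Among the 2410 optimal summits in windows of coding genes, 3.07% were in coding exons, 12.8% in introns and 69.9% in intergenic DNA. The exonic summits include the pair upstream of aldo-2, in overlapping peaks and in the same neighbouring gene, so not all are independent. At the second aldo-2 peak the replicate 2 summit, 62 bp away, lay in an exon outside the coding sequence. The exonic gpd-3 summit is in a peak that overlaps that of the intergenic summit.

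The aldolase gene aldo-2 (WBGene00017166, chrIII:5874673-5876625 in ce11) had peaks on both sides of its 5′ ends. The strongest, chrIII:5876888-5877287 with signal 141.2, had its summit 463 bp upstream of the outermost 5′ end, in a coding exon of mig-21. That gene runs in the same direction and ends 321 bases before aldo-2 begins. A second peak, chrIII:5876106-5876505 with signal 130.4 (ranks 1874 and 1701 in replicates 1 and 2), had its summit 319 bp downstream of that 5′ end and 164 bp downstream of the internal one, in a coding exon of aldo-2. The third, chrIII:5877087-5877486, was weaker (73.1) and lay 662 bp upstream, again in a coding exon of mig-21. Its ranks were 4040 (replicate 1) and 4438 (replicate 2). Past the other end of the gene, outside the window, was a stronger optimal peak, chrIII:5874322-5874652, with signal 268.5.

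The glyceraldehyde-3-phosphate dehydrogenase genes gpd-2 (WBGene00001684, chrX:3113443-3114689) and gpd-3 (WBGene00001685, chrX:3112091-3113341) lie head to tail, with a gap of 101 bases. They are known to be transcribed together with mai-1, which encodes a homologue of an inhibitor of the mitochondrial ATP synthase, as an operon, a unit in which 1 precursor RNA is cut into several mRNAs. The gpd-2 peak, chrX:3115137-3115465, had its summit 584 bp upstream of the gpd-2 5′ end, in an intron of mai-1. It was also 305 bp downstream of an annotated 5′ end of mai-1, nearer than that of gpd-2 but outside the mai-1 window. A weaker optimal peak (79.1) lay 475 bp upstream of that mai-1 end. Another (108.8) had its summit 779 bp upstream of the outermost mai-1 end, in intergenic DNA, so mai-1 was itself a called gene. The gpd-3 peaks were chrX:3113010-3113409 (123.5), with its summit 131 bp downstream of the 5′ end in a coding exon, and chrX:3113210-3113609 (75.9), with its summit 69 bp upstream, between the 2 genes. The second ranked 3409 in replicate 1 and 5846 in replicate 2, outside the strongest 4133 there.

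Part of the sequence under the gpd-3 peaks is shared with gpd-2. In the stronger peak 75.2% of runs of 30 bases were unique in the genome and in the weaker one 86.3%. All 92 and 51 runs that were not unique also occur in gpd-2. Reads from these bases could have come from either gene, and the files do not say how the authors placed such reads. In the peaks of gpd-2, aldo-2 and pyk-1 every run was unique by this measure.

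**Figure D4:**
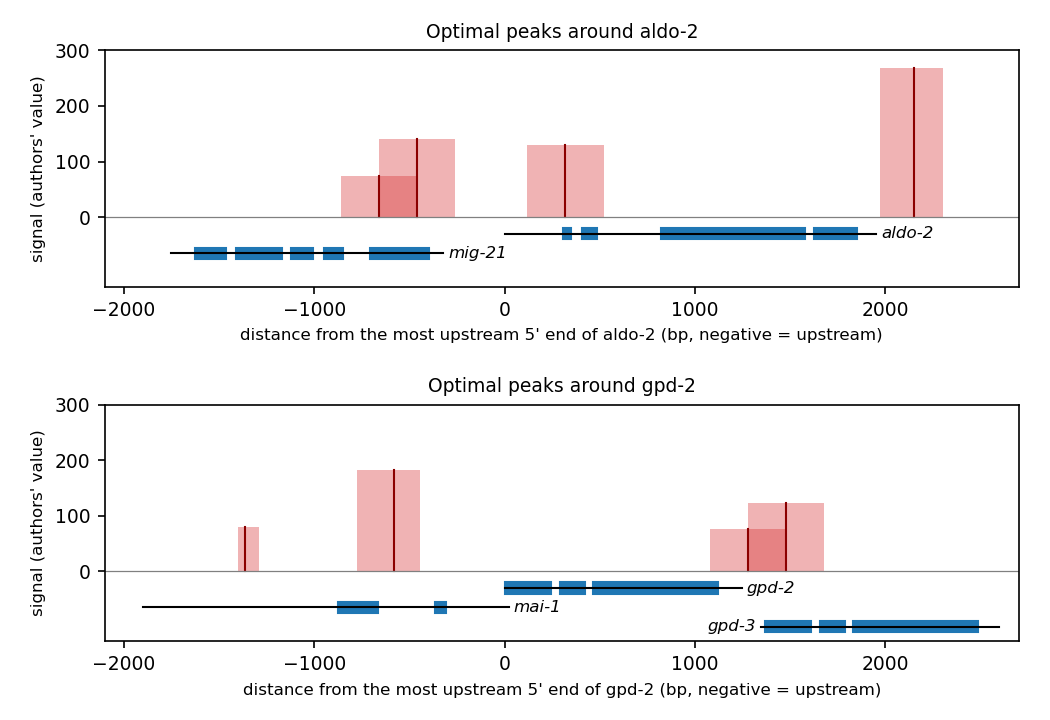
Optimal peaks (red boxes, height is the authors' signal, dark line the summit) and genes (black lines, coding exons as blue boxes) around aldo-2 and gpd-2, by distance from the most upstream 5′ end of each (horizontal axis, bp, both genes drawn left to right). The aldo-2 peaks flank its start and overlie the end of mig-21, and the gpd-2 and gpd-3 peaks lie over mai-1 and over the junction of the gpd-2 and gpd-3 genes.

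The pyruvate kinase gene pyk-1 (WBGene00009126, chrI:9168432-9177488) has 5 annotated 5′ ends. Its peak, chrI:9168421-9168820, was at the first of these, with the summit 189 bp downstream in an intron. Another optimal peak (81.8) had its summit 1412 bp upstream, beyond the window.

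The called genes shared no motif among those searched. These were GAGAGA, GAGACGCAG, the E-box CACGTG, the hypoxia-type site TACGTG, the nuclear receptor half-site AGGTCA and TATAAA, each sought on both strands within 50 bp of the summit. The strongest aldo-2 summit had CACGTG, beginning 4 bp downstream of it, as shown in capitals above, and 8.13% of all optimal summits had that motif. The pyk-1 summit had AGGTCA, found at 4.21% of optimal summits. The strongest summits of gpd-2 and gpd-3 had none of the 6, and none of the 4 had GAGAGA, which 23.2% of optimal summits had, or GAGACGCAG (7.26%), TACGTG (2.64%) or TATAAA (6.29%). The weaker gpd-3 summit, 69 bp upstream of the 5′ end, did have TATAAA within 50 bp, and the 2 weaker aldo-2 summits had none of the 6. These letters describe the windows and say nothing of which factor binds there. GC content was 37.6% at gpd-2, 36.6% at aldo-2, 49.5% at gpd-3 and 41.6% at pyk-1, between the 10th percentile (33.7%) and the 90th percentile (55.4%) of optimal summits.

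The count in other genes of carbohydrate metabolism was also above the background. Beside the 4 of 10 members stood a chosen list of 42 such genes, of which 41 were found in the annotation and 14 of these were called (34.1%), against 14.7% of all protein-coding genes. Among the other glycolysis genes 3 of 9 were called: the hexokinase genes hxk-2 (237.7) and hxk-3 (151.0), whose enzymes phosphorylate glucose at the entry to the pathway, and pyk-2 (84.7), the other pyruvate kinase gene. The hxk-2 peak was shared with cdk-9 and that of pyk-2 with ZK596.2. Lactate dehydrogenase ldh-1 (pooled signal 65.0) and gpd-1 (48.2) had pooled candidates below the threshold, ipgm-1 and hxk-1 weaker ones, and pfk-1.2 and gpd-4 had none.

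Gluconeogenesis runs from pyruvate back to glucose, and 3 of its 5 genes were called: pck-2 (178.1) for phosphoenolpyruvate carboxykinase, pyc-1 (168.6) for pyruvate carboxylase and fbp-1 (106.1) for fructose-1,6-bisphosphatase. Glycogen and trehalose genes, which act on sugar stores, had 4 of 10: the trehalase gene tre-1 (471.7, shared with dad-1 and F57B10.17), agl-1 (126.9, shared with pfs-2) for the glycogen debranching enzyme, tps-2 (120.8) for a trehalose-6-phosphate synthase and gsy-1 (104.5) for glycogen synthase. Of 4 pyruvate dehydrogenase genes dld-1 (538.2, shared with LLC1.120), for dihydrolipoamide dehydrogenase, was called, and of 4 pentose phosphate genes none was, although tkt-1 (66.8) had a pooled candidate near the threshold. Among 9 genes for regulators, aak-2 (114.7) for an AMP-activated protein kinase subunit, mml-1 (105.4) for a bHLH protein and pfkb-1.1 (101.5) were called, and the hypoxia factor gene hif-1 (pooled signal 52.1) was not. The median signal was 132.4 for the 4 called members and 123.9 for the 14 called genes of the other list.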

How the data were processed

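NHR-90 ChIP-seq was deposited as peak lists for 2 replicates, grouped by the labels. Per the file listings deposited with them, candidates and background were derived from each replicate's alignments, or from both, with a control that is not analysed here, and a threshold on the irreproducible discovery rate gave the optimal list. For aligner, peak caller and versions: not given in the sources used here. Each signal value is the authors', as deposited. The −log10 q-value is as deposited too. Lists in ce10 were not used.

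Summits in ce11 were compared with 5′ ends of Ensembl release 115 (WBcel235), whose coordinates equal ce11, using Python 3.11.15, numpy 2.4.6 and pandas 2.3.3. Many annotated 5′ ends in worms are where a leader is spliced on, not where transcription starts. Overlap meant 1 bp or more. No test was applied: there is 1 group and no read counts, and genes are not replicates. Named genes are the members, called genes of the carbohydrate list, genes sharing their peaks and the genes next to the strongest member in rank. Other carbohydrate genes and neighbouring genes were named after their values were seen. The members and lists were chosen with earlier results of these data known.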

Additional observations from a re-analysis of the deposited data

How the results depend on the processing

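Each count is of 10 members, with the share of all protein-coding genes called under the same setting after it. The count of called members was 4 (14.7%). It was 5 with a window of 2000 bp upstream (18.7%, adding tpi-1) and 4 with start codons in place of 5′ ends (14.2%). It was 4 with any 1 bp of a peak in the window (15.6%). With the nearest 5′ end alone it was 3 (9.64%, without gpd-2, whose summit is nearer to a mai-1 end). Equally many of the strongest pooled candidates gave the same 4 members and also 2927 called genes (14.7%). The called members had the same signals and ranks in both lists, so this setting was not a separate check. The count was also 4 among optimal peaks with a candidate in both replicates (14.6%), an alternative chosen after seeing the data. That filter removed only 12 of the 4133 optimal peaks, so it could hardly change the count. The count was 2 among the 2066 strongest optimal peaks (8.59%, aldo-2 and gpd-2). It was also 2 with a window of 500 bp upstream to 100 bp downstream (11.6%, aldo-2 and gpd-3). Without replicate 1 it was 4 (14.3%), with enol-1 in place of pyk-1. Without replicate 2 it was the same 4 members (14.7%). These are the single-replicate lists described above. The count called in both replicates was 3 (12.2%), and with the narrower window 1 (9.68%, aldo-2), which is close to the background. It was 4 with the window of 2000 bp upstream (15.8%, adding tpi-1) and 3 with start codons (11.9%). Among the 2066 strongest candidates of each replicate it was 2 (7.43%, aldo-2 and gpd-2). The strongest gpd-3 signal of 123.5 became 75.9 with the narrower window and 182.1, the gpd-2 peak, with the wider one, where pyk-1 had 81.8. Within 100 bp of the strongest summits GAGAGA was at 1 called member (gpd-2) and at 35.4% of optimal summits, and AGGTCA at 2 (gpd-2 and pyk-1) and 7.4%. No paired analysis was possible because the samples form a single group. Without read counts, the smallest difference that could be seen between weak candidates is unknown.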
